A study of Mus musculus with 1 sample.

Results

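Metallothionein-high alveolar macrophages (AMs) are described here, the cells of a single wild-type (WT) mouse library that carried the most Mt1 and Mt2 transcripts. Each cell was scored by the mean of 2 z scores, those of its natural-log Mt1 and Mt2 values across all cells, and the 200 cells with the highest score were taken out of 2055 (9.73%), leaving 1855 other cells for comparison. Because the cells were chosen on Mt1 and Mt2, the levels of these 2 genes describe the choice and are not results.

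The study compared mice with and without Hdac3, a histone deacetylase, in macrophages, and the WT library is the one analysed here. It came from 1 adult mouse carrying the floxed Hdac3 alleles without Cre, with an age label of 8 to 12 weeks. The line was given as FVB/NJ, backcrossed onto C57BL/6 for 10 generations. The paper states fewer generations, for its cross with Csf1r-iCre mice, so the background of this mouse is uncertain. Lungs were digested with collagenase D, CD45+CD11c+SiglecF+ cells were sorted, and 5000 of them were loaded for droplet 3' RNA sequencing, in which transcripts are counted by unique molecular identifiers (UMIs). With 1 mouse and 1 library there was no replicate, so no difference below carries a test or an error between mice. All cells had been through the same digestion and sorting, which cannot be told apart from the state of the cells in the lung.

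Metallothioneins are small cysteine-rich proteins that hold zinc and copper ions and can take up cadmium and reactive oxygen species. Their genes are switched on by the zinc-sensing factor Mtf1, which binds metal response elements (MREs), and also respond to glucocorticoids, oxidative stress and inflammatory cytokines. AMs live on the surface of the airspaces, clear surfactant, particles and dying cells, and handle large amounts of iron and lipid.

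Mt1 (chromosome 8, 94179082 to 94180327, plus strand of GRCm38) and Mt2 (chromosome 8, 94172664 to 94173568, plus strand) are neighbours in the genome. The windows from 250 bases before to 50 bases after their RefSeq starts are shown because MREs are the best known control sequence of both genes, together with that of Slc30a1, the zinc exporter of the plasma membrane and another textbook target of Mtf1. Capitals mark matches to the MRE core, searched as TGCACNC and TGCGCNC on both strands. The windows are chr8:94178839-94179138 for Mt1, chr8:94172368-94172667 for Mt2 and chr1:191906531-191906830 for Slc30a1, all on the plus strand of GRCm38.p6.
Mt1: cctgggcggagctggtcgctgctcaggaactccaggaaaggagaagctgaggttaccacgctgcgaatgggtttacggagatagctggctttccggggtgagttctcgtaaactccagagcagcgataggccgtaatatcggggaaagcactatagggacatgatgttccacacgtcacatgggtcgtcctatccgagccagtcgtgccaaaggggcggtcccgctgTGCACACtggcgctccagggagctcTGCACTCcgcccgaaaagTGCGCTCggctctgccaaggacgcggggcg
Mt2: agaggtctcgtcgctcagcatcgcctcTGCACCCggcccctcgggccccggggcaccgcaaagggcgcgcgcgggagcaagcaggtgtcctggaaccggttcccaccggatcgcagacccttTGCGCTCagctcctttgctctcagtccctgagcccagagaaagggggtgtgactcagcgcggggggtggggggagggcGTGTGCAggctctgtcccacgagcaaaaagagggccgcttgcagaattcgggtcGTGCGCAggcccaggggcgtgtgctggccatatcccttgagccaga
Slc30a1: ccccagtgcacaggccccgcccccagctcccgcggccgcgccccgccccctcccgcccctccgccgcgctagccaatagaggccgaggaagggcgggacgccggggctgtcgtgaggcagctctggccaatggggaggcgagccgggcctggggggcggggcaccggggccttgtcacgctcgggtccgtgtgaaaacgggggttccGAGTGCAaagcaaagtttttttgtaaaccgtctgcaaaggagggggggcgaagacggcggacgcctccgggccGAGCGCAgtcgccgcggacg

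The Mt1 window held 3 matches and the Mt2 window 4, while that of Slc30a1 held 2. Of 32851 promoter windows of the same length in the RefSeq table, 25.7% held at least 1 match, 1.97% at least 3 and 0.517% at least 4. A match is a run of letters and not a measured binding site. Each of these genes had 1 start in the table, and that of Mt2 lies upstream of the gene start given above. Sequence outside the windows was not searched, so the counts are not those of the whole promoters.

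In the members Mt1 ranged from 39.7 to 297 UMIs per 10000 UMIs of the cell with a median of 73.3, and in the other cells from 0 to 113 with a median of 24.1. Mt2 ranged from 3.39 to 68.5 per 10000 in the members with a median of 21.6, and from 0 to 29.7 in the others with a median of 4.21. In raw numbers a median member held 25.5 Mt1 UMIs and 6 Mt2 UMIs, against 8 and 1 in a median other cell. Each range overlapped that of the other cells, since the choice was made on the mean of both genes.

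The members held 25.6% of all Mt1 UMIs and 31.9% of all Mt2 UMIs in 9.48% of the UMIs of the library. Summed over cells, this came to 3.29 times the level of the other cells for Mt1 and 4.48 times for Mt2. No gap set the members apart. The cell at rank 200 had a score of 1.047, with 19 Mt1 and 7 Mt2 UMIs, and the cell at rank 201 had 1.044, with 13 and 10. Of the members, 145 were also among the 200 highest cells by Mt1 alone and 144 by Mt2 alone. Across all 2055 cells the log values of the genes had a Pearson r of 0.416 and a Spearman rho of 0.463, and both points of a cell share its UMI total.

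**Figure D1:**
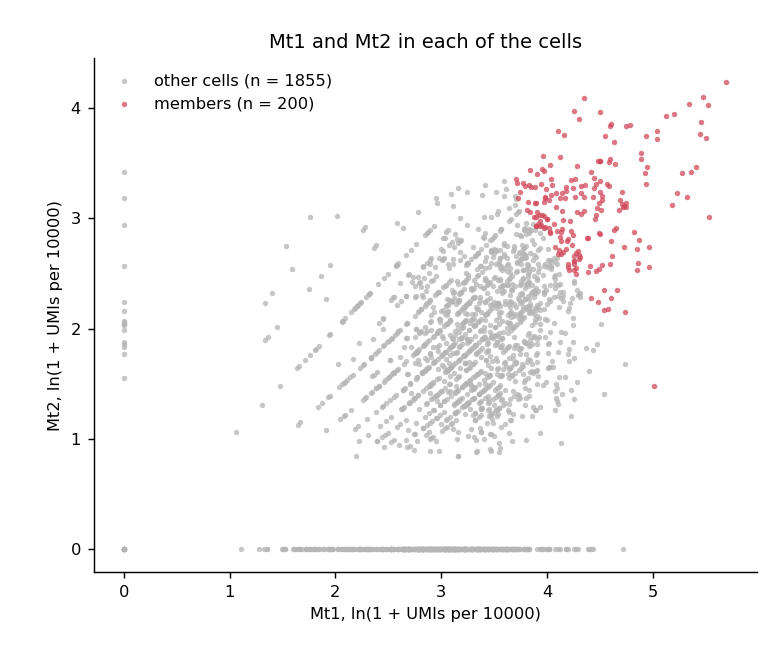
Natural-log values of Mt1 (horizontal axis) and Mt2 (vertical axis), ln of 1 plus UMIs per 10000, in each of 2055 cells, with the 200 members in red and the 1855 other cells in grey. The members form the upper right edge of 1 continuous cloud, and cells without a UMI of either gene lie on the axes.

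Part of such a high score is counting noise, so the choice was repeated on a random split of the UMIs. Members chosen on one part of the UMIs had 2.91 times the Mt1 level (95% interval 2.78 to 3.03) and 3.57 times the Mt2 level (3.26 to 3.90) of the other cells in the UMIs that had not been used. Both parts came from the same cells, and Mt1 and Mt2 are the genes of the choice. These ratios therefore show only how much of the choice is left beyond counting noise. Of the cells so chosen, 150 of 200 were members of the original set. That overlap is partly built in, because the UMIs used here also counted toward the original score.

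The members were AMs by their markers. Of 36 AM identity genes, 34 had at least 400 UMIs in the library, and none of them differed by 1.5-fold or more. Chil3, a chitinase-like lectin, had 130.1 UMIs per 10000 in the members and 136 in the others, and Ear2, an eosinophil-associated ribonuclease made by AMs, had 29.5 and 33.6. Pparg, the nuclear receptor on which AM identity depends, had 1.08 and 1.18 per 10000, a ratio of 0.914 with a 95% interval of 0.710 to 1.16. Fabp4, a fatty acid binding protein, was the AM gene furthest above 1 among those named, at 1.43 times the level of the others (1.27 to 1.59), and stood at 1.05 once the cells of highest chemokine score described below were left out. Hdac3, the gene the study deletes elsewhere and which is intact here, had only 11 UMIs in the members and a ratio of 0.973 (0.472 to 1.81). Intervals on ratios and shares are exact and cover the counting of UMIs or cells only.

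Markers of other cells were rare in both groups. Neutrophil markers, 6 of 13 listed genes, summed to 0.935 UMIs per 10000 in the members and 1.11 in the others. T and NK cell markers had 2 UMIs in all 200 members and 6 in the others, and eosinophil markers had 16 and 113, a ratio of 1.35 (0.748 to 2.29). Markers of endothelial, stromal and red cells had 9 UMIs in the members and 118 in the others. B and plasma cell markers had 10 and 1028 UMIs, or 0.146 and 1.57 per 10000, and most of the 1028 were Jchain. Monocyte and interstitial macrophage markers gave 1.59 per 10000 in the members and 1.75 in the others. The epithelial list gave 4.18 against 4.38 per 10000. Jchain, the joining chain of antibodies, is the gene with the lowest ratio of all (0.0862), and 940 of its 1006 UMIs lay in 1 cell that was not a member. Without that cell its ratio was 1.51.

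The library held 7222978 UMIs. A member held from 1147 to 6971 UMIs (median 3255) and a median of 1451.5 genes, and the other cells held from 1143 to 8603 UMIs (median 3279) and a median of 1454 genes. The median mitochondrially encoded share was 3.24% in the members and 3.20% in the other cells, and 32 members (16%) were above 5% against 352 others (19.0%). No doublet caller was run, and 3 members and 87 other cells held over 2 times the median number of UMIs. Since almost all cells are of 1 type, no second cell type was at hand to set the share of cells that free RNA alone would mark.

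Genes other than Mt1 and Mt2 were then compared by summed UMIs per 10000, and a gene was counted when its ratio reached 1.5 in either direction. Among 2517 genes with at least 400 UMIs, 30 were at least 1.5-fold higher in the members (1.19%) and 30 at least 1.5-fold lower (1.19%), and the median log2 ratio over all 2517 was -0.03. The counts were equal but the strength was not. The 30 higher genes had from 63 to 2333 UMIs in the members (median 155.5), and the lower genes from 9 to 91 (median 33.5). Among the genes with at least 1000 UMIs over all cells, 13 were higher and 3 lower, and Jchain was 1 of those 3. All 60 had counting intervals that lay to 1 side of a ratio of 1. The minimum of 400 UMIs and the 1.5-fold limit leave little room for another outcome, so this is no further support.

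**Figure D2:**
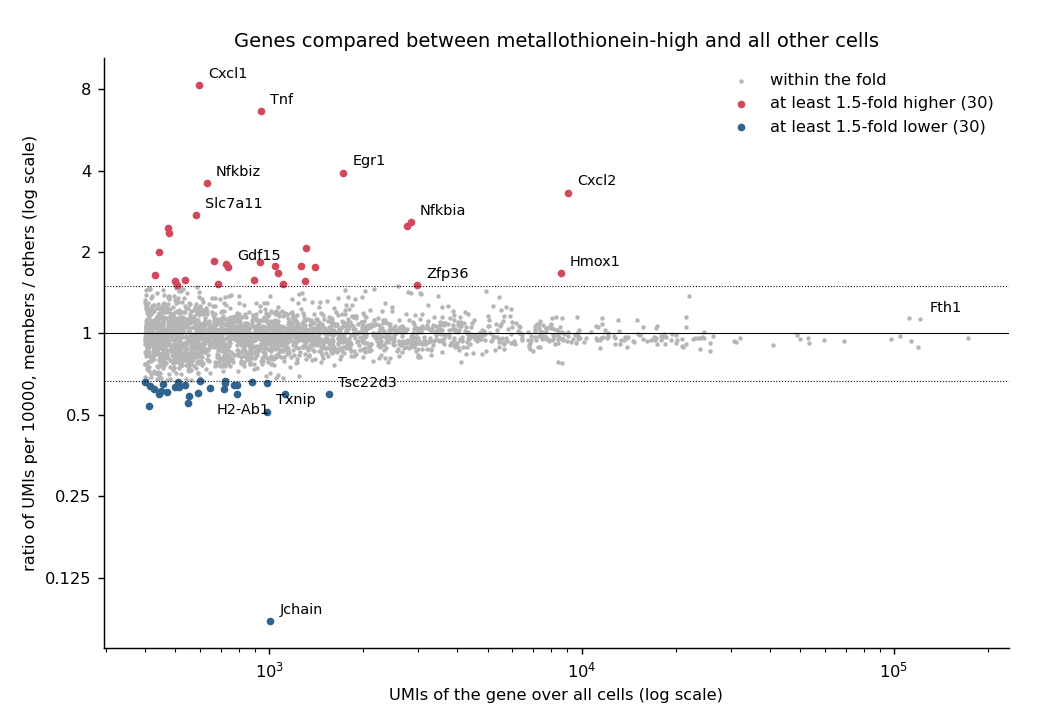
Ratio of UMIs per 10000 between the 200 members and the 1855 other cells (vertical axis, log scale) against the UMIs of the gene over all cells (horizontal axis, log scale) for 2517 genes, with Mt1 and Mt2 left out. Red and blue points pass the dotted 1.5-fold lines, and of those with at least 1000 UMIs 13 lie above the line at 1, such as Cxcl2 and Hmox1, and 3 below it, which are Tsc22d3, H2-Ab1 and Jchain.

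Most genes for the handling of zinc were sparsely counted. Of 18 listed zinc transporters and metal response genes in the library, 17 had under 30 UMIs in the members, and only Slc39a1 reached the minimum for comparison. A ratio above 1 was found for 5 of the 18, where it was found for 42.2% of the 11115 genes with no more UMIs than the best counted zinc gene, and Slc39a1 alone had a counting interval clear of 1. Slc39a1, a zinc importer, had 2.56 UMIs per 10000 in the members and 1.95 in the others, a ratio of 1.31 (1.11 to 1.53). It was seen in 44% of members and 38.5% of others. Without the cells of highest chemokine score described below it had 2.99 and 1.97 per 10000 and passed 1.5-fold, with a ratio of 1.52 (1.27 to 1.81). Its ratio lay between 0.915 and 1.52 under the alternatives run, so the direction did not hold under all of them, and its level was 1.64 per 10000 in the next 200 cells by score and 2.20 in the cells of lowest score.

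Slc30a1, whose promoter is shown above, had 20 UMIs in the members and 261 in the others, or 0.292 and 0.399 per 10000, with a ratio of 0.732 (0.440 to 1.15). It was detected in 10.0% of members (95% interval 6.22 to 15%) and 12.6% of others (11.1 to 14.2%). Mtf1, the factor that senses zinc, had 13 UMIs in the members and a ratio of 0.796 (0.414 to 1.40), and Slc39a10, another importer, had 14 and a ratio of 0.696 (0.374 to 1.20). Slc39a14, an importer of zinc and iron, had 20 UMIs and a ratio of 1.40 (0.832 to 2.26). At this depth a modest difference in any of these 4 could not be seen.

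Of 4 copper handling genes compared, none passed 1.5-fold over all cells, with a median log2 ratio of 0.17. The copper chaperones Atox1 and Cox17 had ratios of 1.11 (1.02 to 1.21) and 1.13 (1.01 to 1.27), and Cox17 shares 17% of its 3' sequences with another gene. Commd1, which regulates copper export, had 1.47 (1.12 to 1.91), and it passed 1.5-fold, at 1.53 (1.12 to 2.07), without the cells of highest chemokine score. Atp7a, the copper pump, went the other way on 12 UMIs, with a ratio of 0.546 (0.278 to 0.974).

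Hmox1 was the most strongly counted of the higher genes outside the chemokines. It encodes heme oxygenase 1, which breaks heme into iron, carbon monoxide and biliverdin, and lies on chromosome 8 at 75093621 to 75100589. The members had 1276 Hmox1 UMIs, or 18.6 per 10000, against 11.2 in the others, a ratio of 1.67 (1.57 to 1.77). Per cell it ranged from 0 to 152 per 10000 with a median of 13.4 in the members, and from 0 to 97.4 with a median of 8.82 in the others, so the ranges overlapped widely. It was detected in 93.5% of members (89.1 to 96.5%) and 86.4% of others (84.7 to 87.9%). With every cell thinned to 2000 UMIs, which kept 159 members and 1597 others, these shares were 93.7% and 79.1%.

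The other iron and heme genes were closer to 1. Of 10 compared, 1 was higher by 1.5-fold (Hmox1), none was lower, and the median log2 ratio was 0.13. Ftl1 and Fth1, the light and heavy chains of the iron store ferritin, had ratios of 1.14 (1.12 to 1.16) and 1.13 (1.11 to 1.15), and 50.3% of the 3' sequences of Ftl1 are shared with a pseudogene, so its UMIs are less certain. Blvrb, which reduces biliverdin, had a ratio of 1.37 (1.03 to 1.79), and Slc48a1, which moves heme out of lysosomes, had 1.35 (1.02 to 1.76). The transferrin receptor Tfrc and the iron exporter Slc40a1 had 4 and 1 UMIs in the members, too few to compare.

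Among 17 compared targets of the antioxidant factor Nrf2, 14 had ratios above 1, where 43.8% of all 2517 compared genes did. Of the 17, 2 were higher by 1.5-fold (Hmox1 and Slc7a11), none was lower, and the median log2 ratio was 0.20. Slc7a11, which imports cystine for glutathione, had 1.90 UMIs per 10000 in the members and 0.693 in the others, a ratio of 2.74 (2.24 to 3.34), and was seen in 27.0% and 16.8% of cells. Of its 130 UMIs in the members, 90 lay in 53 members of high chemokine score, described below. Gclc, the catalytic subunit of the first enzyme of glutathione synthesis, had a ratio of 1.46 (1.12 to 1.88), while its partner Gclm had 1.08 (0.804 to 1.43). Of the 70 Gclc UMIs in the members, 31 lay in the same 53 members. Without the cells of highest chemokine score Gclc had 0.821 per 10000 in the members and 0.688 in the others. Txnrd1, thioredoxin reductase, had 1.38 (1.13 to 1.66), and Sqstm1, an autophagy receptor, had 3.36 UMIs per 10000 in the members and 2.32 in the others.

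Srxn1, which repairs peroxiredoxins, had a ratio of 1.53 (1.01 to 2.25) on 31 UMIs in the members and was under the minimum for comparison. Nqo1, a quinone reductase often used to read out Nrf2, had 2 UMIs in the members and 1 in the others and was not informative here. In the list of glutathione and peroxide genes, 2 of 11 were higher, none was lower, and the median log2 ratio was 0.04. They were Prdx6, a peroxiredoxin that also acts on surfactant phospholipid, with a ratio of 1.58 (1.22 to 2.02), and the glutaredoxin Glrx, with 1.57 (1.20 to 2.02). Gpx1 and Gpx4, the glutathione peroxidases, had ratios of 1.03 and 0.977, and 80.2% of the 3' sequences of Gpx4 are shared with other genes.

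The highest ratios belonged to chemokines, cytokines and NF-kB feedback genes. Of 20 genes compared in that list, 9 were higher by 1.5-fold, none was lower, and the median log2 ratio was 0.54. Cxcl1, a neutrophil chemokine, had 4.05 UMIs per 10000 in the members and 0.488 in the others, a ratio of 8.29 (7.03 to 9.77), but 1 member held 63 of the 277 UMIs and 4 members held 50% of them. Tnf had 5.62 and 0.846 per 10000, a ratio of 6.65 (5.82 to 7.59), with 50% of its UMIs among the members in 10 cells. Cxcl2, the best counted of the higher genes, had 34.1 and 10.3 per 10000, a ratio of 3.32 (3.16 to 3.48).

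The NF-kB regulator genes Nfkbiz, Nfkbia and Tnfaip3 had ratios of 3.61 (3.01 to 4.31), 2.58 (2.35 to 2.82) and 1.78 (1.49 to 2.1). The cytokines Il1a and Il1b had 2.35 (1.86 to 2.95) and 1.75 (1.51 to 2.03), and Ccrl2, which presents chemerin, had 2.00 (1.55 to 2.57). Not all of the list went along. Ccl6, a chemokine that AMs make at rest, had 90.4 UMIs per 10000 in the members and 96.4 in the others, and Ccl4 had a ratio of 1.02 (0.792 to 1.29).

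Of 23 immediate-early genes, which respond within minutes to stimulation, 5 were higher by 1.5-fold, none was lower, and the median log2 ratio was 0.08. Egr1 stood out, with 7.36 UMIs per 10000 against 1.87 and a ratio of 3.94 (3.54 to 4.37). Jun, Ier3, Ier2 and Zfp36 had ratios between 1.51 and 1.85. Fos, the partner of Jun in AP-1, had 8.74 and 8.27 per 10000 (ratio 1.06, 0.970 to 1.15), and Dusp1, a MAP kinase phosphatase, had 1.16 (1.06 to 1.26). Both are detected in most cells of either group. Of the 504 Egr1 UMIs in the members, 404 lay in 53 members of high chemokine score, described below. Once all cells of highest chemokine score were left out, 1 of the 23 genes was higher by 1.5-fold and the median log2 ratio was -0.01. That gene was Egr1, at 2.11 and 1.22 UMIs per 10000.

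Most of the chemokine and NF-kB excess lay in few cells. The 200 cells with the highest mean z score over the 20 compared genes of that list included 53 members, or 26.5% of the members, where members are 9.73% of all cells. Because this group was chosen on genes that include Cxcl2, Tnf and Cxcl1, higher levels of them inside it than outside follow from the choice. In these 53 members Cxcl2 had 94.1 UMIs per 10000, and in the 147 others of the same chemokine group it had 53.9. In the 147 members outside the group it had 7.56, close to the 5.80 of the remaining 1708 cells. For Tnf the levels in the same order were 16.8, 4.08, 0.695 and 0.514 per 10000, and for Cxcl1 they were 12.3, 2.96, 0.400 and 0.234. The 53 members were deeper than the other members, with a median of 3862 UMIs against 3084, and the part of depth in these levels was not tested. Mt1, on which the members were chosen, had 84.3 per 10000 in the 53 members of the group and 91.2 in the 147 outside it, but its median per cell was 76.4 in the 53 and 72.7 in the 147. Mt2, the other gene of the score, had 26.6 per 10000 (24.5 to 29.0) in the 53 and 22.1 (20.8 to 23.5) in the 147.

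The comparison was repeated without the 200 cells of the chemokine group. Their removal takes out high chemokine values by its construction, so for those genes it shows only what is left. Of the 2517 genes, 21 were then at least 1.5-fold higher (0.834%) and 41 at least 1.5-fold lower (1.63%), with a median log2 ratio of -0.02. Of the 30 higher genes, 10 were higher in both comparisons. Among these were Hmox1, Gdf15, Prdx6, Glrx, Kdm6b, Egr1, Cxcl1 and 2810417H13Rik. Cxcl1 had passed the minimum for comparison over all cells, including those removed here. Without them it had 19 UMIs in 147 members and 139 in 1708 other cells. It was seen in 6.80% of these members and 5.85% of these other cells, so its place among the 10 rests on few UMIs.

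Hmox1 kept a ratio of 1.58 (1.47 to 1.70) among the cells outside the chemokine group. Gdf15, a stress-induced cytokine, had 1.76 (1.43 to 2.15) over all cells and 1.64 (1.27 to 2.09) outside the group. Slc7a11 stood at 1.43 (1.00 to 1.98) outside the group, where its level was 0.842 per 10000 in the members. Nfkbiz, Tnfaip3, Jun, Il1a, Ccrl2 and Chka, a choline kinase, were below 1 there, at 0.896, 0.863, 0.906, 0.953, 0.999 and 0.910. The Nrf2 list kept a median log2 ratio of 0.20 outside the group, and the chemokine and NF-kB list had 0.05.

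**Figure D3:**
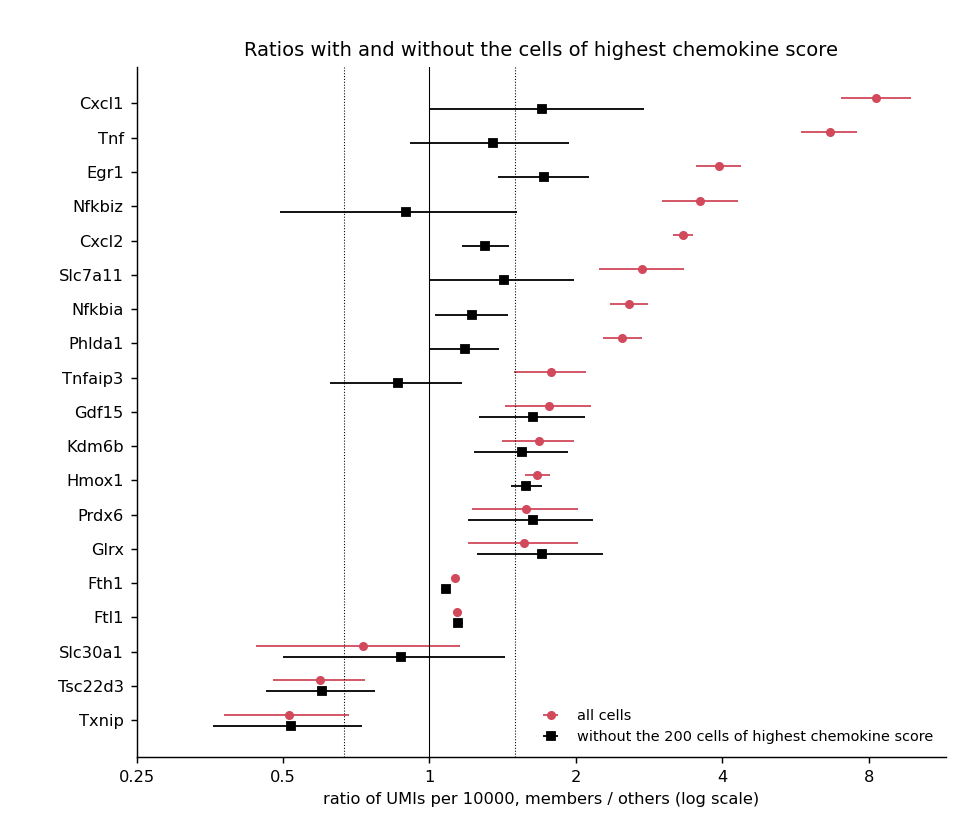
Ratio of UMIs per 10000 between members and other cells (horizontal axis, log scale) for 19 genes, over all cells (red circles) and without the 200 cells of highest chemokine score (black squares), with 95% counting intervals. Cxcl1, Tnf, Nfkbiz and Cxcl2 move toward 1, whereas Hmox1, Gdf15, Prdx6, Tsc22d3 and Txnip stay close to their first position.

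The lower genes included a pair that respond to glucocorticoids, Txnip and Tsc22d3, of which Txnip also responds to glucose. Txnip, which binds thioredoxin and curbs glucose uptake, had 50 UMIs in the members and 929 in the others, or 0.730 and 1.42 per 10000, a ratio of 0.514 (0.379 to 0.683). It was seen in 19.5% of members (14.2 to 25.7%) and 30.2% of others (28.1 to 32.3%), and in 12.6% and 21.9% of cells thinned to 2000 UMIs. Tsc22d3, which encodes the glucocorticoid-induced leucine zipper, had 1.33 and 2.23 per 10000, a ratio of 0.595 (0.476 to 0.736), and was seen in 35% and 46.8% of cells. Outside the chemokine group the ratios were 0.519 and 0.603.

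The rest of the glucocorticoid list did not follow them. Of its 11 compared genes, 2 were lower (Txnip and Tsc22d3), 1 was higher (Nfkbia, which also stands in the NF-kB list), and the median log2 ratio was 0.00. Fkbp5, a co-chaperone of the glucocorticoid receptor and a sensitive readout of it, had a ratio of 0.946 (0.743 to 1.19), Sgk1, a kinase, had 1.03 (0.940 to 1.13), and the receptor gene Nr3c1 had 0.876 (0.661 to 1.14). A full palindromic glucocorticoid response element, searched on both strands, occurred in 3 of the 32851 promoter windows and in none of Mt1 or Mt2. So rare a match was not to be expected in any given window, so its absence says nothing about these genes.

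Levels were also followed along the score in the cells that were not members, in bins of ranks 201 to 400, 401 to 800, 801 to 1200 and 1201 to 2055. Hmox1 had 18.6 UMIs per 10000 in the members and 12.98, 12.4, 12.1 and 9.60 in the successive bins. Slc7a11 went from 1.90 through 1.17, 0.853 and 0.672 to 0.504, and Cxcl2 from 34.1 through 21.3, 11.5 and 9.08 to 7.56. Tnf was at 5.62 in the members, 1.59 in the next 200 cells and 0.599 in the last bin. Txnip ran the opposite way, at 0.730, 0.779, 0.947, 1.07 and 2.02 per 10000, as did Tsc22d3 at 1.33, 1.5, 1.76, 2.04 and 2.76. Slc30a1 showed no order, at 0.292, 0.360, 0.477, 0.448 and 0.342. For Txnip the counting intervals of the members and of the last bin did not overlap, and those of neighbouring bins overlapped except for the last pair.

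**Figure D4:**
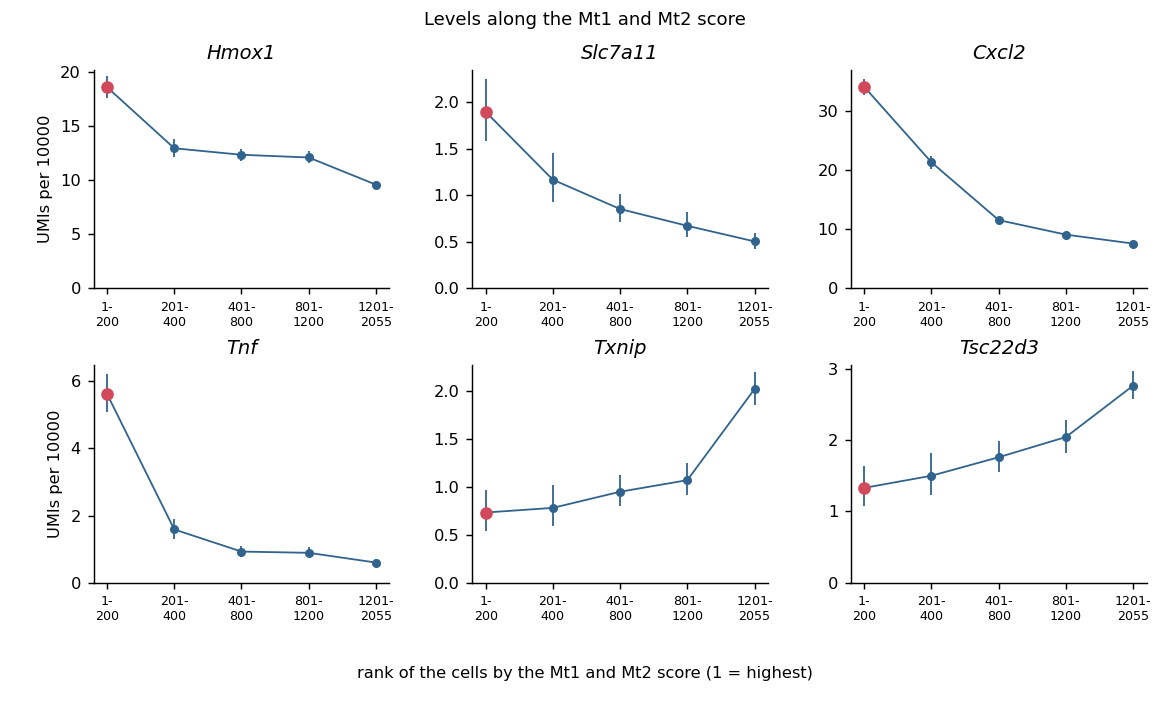
UMIs per 10000 (vertical axes, starting at 0) of 6 genes in 5 bins of cells ranked by the Mt1 and Mt2 score (horizontal axis, rank 1 highest), with 95% counting intervals and the members in red. Hmox1, Slc7a11, Cxcl2 and Tnf are highest in the members, and Txnip and Tsc22d3 are highest in the cells of lowest score.

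Genes of MHC class II gave ratios that depended on where the members ended. H2-Ab1 and H2-Eb1, the beta chains that present antigen, had ratios of 0.598 (0.459 to 0.767) and 0.606 (0.398 to 0.889), and both were among the 30 lower genes. H2-Ab1 had 0.964 UMIs per 10000 in the members, 4.04 in the next 200 cells and between 1.07 and 1.46 in the later bins. Of its 1120 UMIs, 194 lay in 3 cells of ranks 201 to 400, and 35 cells held 50% of them. With the 400 highest cells as members its ratio was 1.90. Cd74, the invariant chain, was seen in 33.0% of members and 33.4% of others.

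Genes of sterol synthesis and uptake had a median log2 ratio of 0.40 over 6 compared. Insig1, which holds back sterol synthesis when cholesterol is high, had a ratio of 1.35 (1.12 to 1.60), and Hmgcs1, an early enzyme of the pathway, had 1.34 (1.04 to 1.71). Abca1, which exports cholesterol, was among the lower genes with 44 UMIs in the members and a ratio of 0.625 (0.450 to 0.849).

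Heat shock genes were near 1, with none of 12 past 1.5-fold and a median log2 ratio of 0.05. The paired inducible genes Hspa1a and Hspa1b, which share much coding sequence, had ratios of 0.897 (0.640 to 1.23) and 1.38 (1.10 to 1.71). Genes of the unfolded protein response (11 compared), lysosome and cathepsin genes (25), galectins, S100 proteins and annexins (15), mitochondrially encoded genes (12) and nuclear long noncoding RNAs (4) had none past 1.5-fold, and their median log2 ratios lay between -0.06 and 0.09. In the p53 and apoptosis list, Gdf15 and the death gene Bcl2l11 (ratio 1.57, 1.33 to 1.83) were the 2 of 7 that were higher, and Cdkn1a had 1.22 (1.12 to 1.33). Of the 183 Bcl2l11 UMIs in the members, 94 lay in the 53 members of the chemokine group. Outside that group Bcl2l11 had 1.87 UMIs per 10000 (1.51 to 2.31) in the members and 1.58 (1.48 to 1.69) in the other cells. In the hypoxia and glycolysis list, 1 of 14 was lower, the enolase gene Eno1, which shares 84.5% of its 3' sequences with Eno1b.

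Of the cell cycle lists, 3 S phase and 3 G2/M genes could be compared and none passed 1.5-fold, with Pcna at 1.17 (0.966 to 1.40) and Cks2 at 1.22 (1.04 to 1.41). Summed over all 25 listed genes, G2/M transcripts had 13.3 UMIs per 10000 in the members and 10.0 in the others. The median share of a cell was 0.05% and 0.0531%, so the difference lay in few cells. 2810417H13Rik, a replication-linked gene, was seen in 11.5% of members and 8.95% of others with a ratio of 1.52 (1.21 to 1.89).

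**Figure D5:**
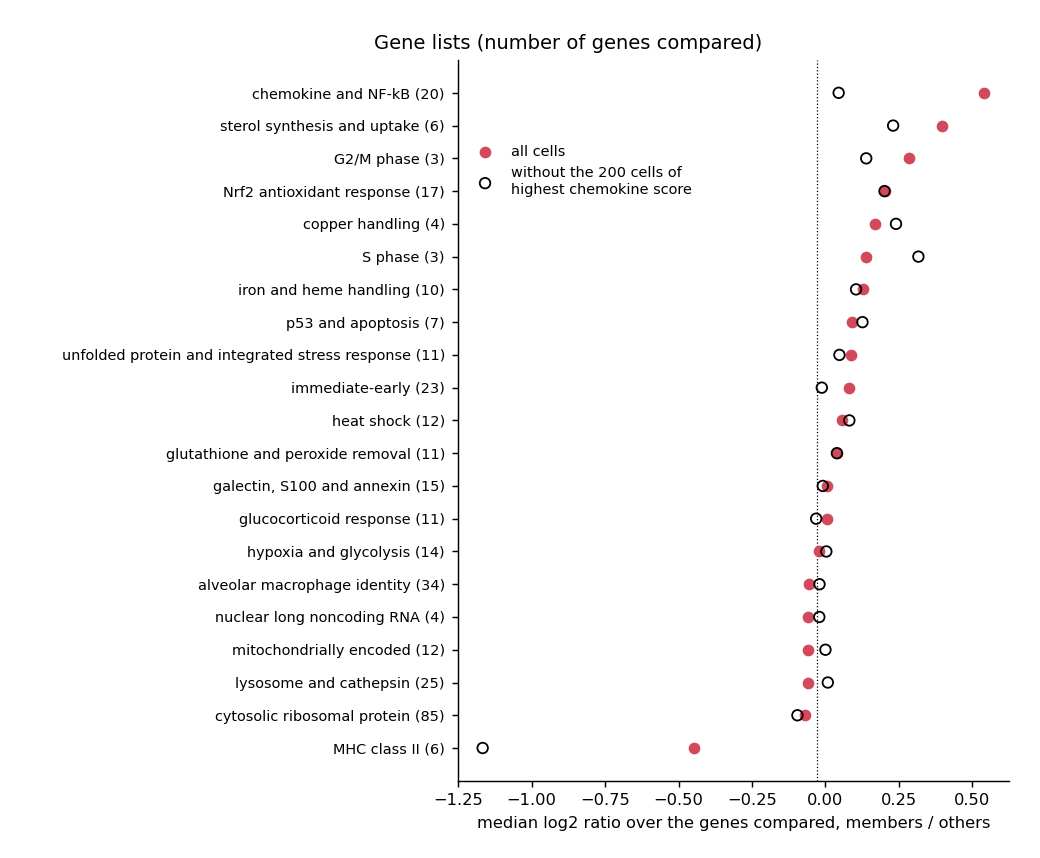
Median log2 ratio between members and other cells (horizontal axis) for each gene list with at least 3 genes compared, over all cells (red) and without the 200 cells of highest chemokine score (open circles), with the median of all 2517 genes as a dotted line. The chemokine and NF-kB list moves from 0.54 to 0.05, the Nrf2 list is at 0.20 both times, and the MHC class II list is lowest.

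The remaining higher genes held several further roles. Phlda1 (ratio 2.49), Areg, a ligand of the EGF receptor (2.45), Kdm6b, a histone demethylase induced in stimulated macrophages (1.68), Plk3 (1.58), the inflammasome sensor Nlrp3 (1.52) and the NAD kinase Nadk (1.5) were among them. Of these, Kdm6b and Nadk kept ratios of 1.55 (1.23 to 1.93) and 1.47 (1.06 to 1.99) without the chemokine group, and Phlda1, Areg and Nlrp3 had 1.18, 1.10 and 1.02. Among the remaining lower genes were the transcription factor genes Cebpa (0.646, 0.474 to 0.864) and Cebpg (0.660, 0.495 to 0.864), the chromatin reader Kmt2e (0.595, 0.431 to 0.801) and the inositol phosphatase Inpp5d (0.610, 0.397 to 0.900). Each of these 4 had under 60 UMIs in the members. Srgn, the proteoglycan serglycin, had 6.03 UMIs per 10000 in the members and 4.81 in the others, and Plet1, a surface protein of AMs, had a ratio of 1.09.

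The members differed among themselves. Of the 200, 53 were among the 200 highest cells of the chemokine list, 34 of the Nrf2 list, 35 of the immediate-early list and 30 of the iron and heme list, against 9.73% of all cells, and 13 were in both the chemokine and Nrf2 groups. Between them these 4 groups held 89 members (44.5%) and 28.4% of the other cells, and 111 members were in none of them. The zinc list, scored on Slc39a1 alone, also had 30 members among its 200 highest cells. For the other lists the number ran from 13 for AM identity to 29 for the unfolded protein response and for p53 and apoptosis, with 28 for copper handling, 27 for sterol synthesis, 22 for heat shock, 14 for MHC class II and 14 for G2/M genes.

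The 100 highest members were set against the other 100. By construction Mt1 and Mt2 were higher in the upper 100, at 114 and 63.2 UMIs per 10000 for Mt1. Slc7a11 was 1.92 times higher there (1.32 to 2.83), Gdf15 2.00 times (1.33 to 3.04) and Cxcl2 1.81 times (1.66 to 1.97), while Hmox1 was 1.14 times higher (1.02 to 1.28). Txnip had 24 and 26 UMIs. The upper 100 held 31 cells of the chemokine group and the lower 100 held 22.

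Promoter windows of the genes past 1.5-fold were searched for the same MRE core. Windows were found for 20 of the 30 higher genes, and 9 of their 28 windows (32.1%) held a match. For 24 of the 30 lower genes, 7 of 29 windows (24.1%) did, where all windows in the table gave 25.7%. An antioxidant response element core, searched on both strands, occurred in 10.7% of the windows of the higher genes, 17.2% of those of the lower genes and 12.4% of all windows.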

How the data were processed

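Cells of 1 WT library were analysed. UMIs were counted by the authors in Cell Ranger 2.1 against mm10. The values deposited from Seurat are natural log (ln) values of UMIs per 10000 UMIs of the cell, with 1 added. A scaled score per value was deposited as well, which the authors had regressed on UMIs and mitochondrial content. Here UMIs were recovered from the steps between the ln values (100% of the values lay within 0.05 of a whole number of steps), over 2055 cells and 11918 genes. The scaled scores were used only in an alternative choice of members. Depth was 1143 to 8603 UMIs per cell.

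Members were the 200 highest cells by the mean z score of Mt1 and Mt2. The members, the 30 gene lists and the rules were chosen with earlier results of these data known. Summed UMIs were compared as ratios of UMIs per 10000 with the exact conditional 95% interval of a ratio of 2 Poisson sums, and shares of cells with the exact binomial interval. Genes needed at least 400 UMIs. Where the text names genes, these were the 20 highest and 15 lowest ratios, every gene of a list past 1.5-fold with the 2 best counted of each list, and a set of genes of metal, stress and AM biology. Genes outside that rule (Sqstm1, Gclc, Blvrb, Slc48a1, Slc39a14, Commd1, Atp7a, Sgk1, Nr3c1, Plk3, Nlrp3, Nadk, Cebpa, Cebpg, Hmgcs1, Ccl4, Tfrc, Slc40a1 and 2810417H13Rik) were chosen after their values were seen.

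Positions came from GENCODE M21 of GRCm38 and promoter windows from RefSeq on GRCm38.p6, by symbol. Shared sequence is the percentage of 98-mers from the final 300 bases of the transcripts that another gene also holds. The comparison was tested on simulated counts. Python 3.11.15, numpy 2.4.6, scipy 1.17.1 and pandas 2.3.3 were used. The knockout library was not analysed here, and some genes that the rule names are not reported here. No test between mice was possible with 1 library, and thinning, other member numbers, other scores, left-out cells, UMI minimums and folds were tried as alternatives.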

Additional observations from a re-analysis of the deposited data

How the results depend on the processing

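The counts of genes past the fold (30 higher, 30 lower) changed with the choice of members, of cells, of UMIs and of the limits. They were 62 and 118 with the 100 highest cells, and 25 and 6 with the 400 highest. Thinning every cell to 2000 UMIs gave 50 and 90 with the same members, and 28 and 66 when members were chosen again. Leaving out cells with UMIs of at least 2 cycle genes, which leaves 55 members in 505 cells, gave 155 and 223. A minimum of 200 UMIs (4299 genes) gave 73 and 146, and one of 1000 UMIs (1157 genes) gave 13 and 3. A smaller fold gave 137 and 185, and a fold of 2 gave 12 and 1. Choosing members on a random 50% of the UMIs and genes on the rest, an alternative added after seeing the data, gave 46 and 97.

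For the 42 named genes past the fold, 614 of 630 alternative ratios stayed on the same side of 1. Without the chemokine group, also added after seeing the data, Nfkbiz (0.896), Il1a (0.953), Ccrl2 (0.999), Jun (0.906), Chka (0.910) and Tnfaip3 (0.863) fell below 1. Without the cycle-gene cells Chka (0.993), Ier2 (0.890), Frrs1 (1.10) and H2-Eb1 (1.23) crossed. H2-Ab1 was 1.90 with the 400 highest cells and 1.69 after thinning with members chosen again, and H2-Eb1 was 2.26 and 2.23. Jchain was 173 with the score of Mt2 alone, 1.51 without its top cell (added after seeing the data), and 0.0133 as a difference of mean ln values. Apart from the alternatives whose construction removes cells, UMIs or genes, the cause was not tested.

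Under the alternatives run, the ratio of Hmox1 lay between 1.40 and 1.73, that of Txnip between 0.433 and 0.555 and that of Tsc22d3 between 0.327 and 0.796. The median log2 ratio of the Nrf2 list lay between 0.06 and 0.39, and that of the MHC class II list between -1.17 and 0.75. No paired analysis was possible because there is 1 library, and no replicate could be left out. Genes with few UMIs, such as Slc30a1 and Mtf1, could not show a modest difference at this depth.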

Other observations

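Some genes under the minimum of 400 UMIs had high ratios in the metallothionein-high cells. They were picked after their values were seen. Il6, a cytokine of inflammation, had 108 UMIs in the 200 members and 186 in the 1855 others, a ratio of 5.55 (95% counting interval 4.33 to 7.07), and was seen in 14% and 6.52% of cells. Marcksl1, a regulator of actin, had a ratio of 4.11 (2.88 to 5.79), Ereg, a ligand of the EGF receptor, had 3.16 (2.29 to 4.32), Cxcl3 had 3.04 (2.27 to 4.04) and Clec4e, a lectin that senses mycobacterial lipid and dying cells, had 2.52 (1.96 to 3.23). Of the 108 Il6 UMIs in the members, 97 lay in the 53 members of the chemokine group. Without that group the ratios were 1.15 (0.561 to 2.14) for Il6, 1.41 (0.620 to 2.80) for Marcksl1, 1.27 (0.491 to 2.75) for Ereg, 1.16 (0.486 to 2.39) for Cxcl3 and 1.90 (1.30 to 2.70) for Clec4e. Along the score, Il6 had 1.58 UMIs per 10000 in the members and 0.447, 0.403, 0.277 and 0.187 in the successive bins.

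At the other end of the score, in the 855 cells of ranks 1201 to 2055, Mt1 had 17.6 UMIs per 10000 and Mt2 had 1.88, and 11 cells of the library had no UMI of either. Lyz2, lysozyme of macrophages, had 179 UMIs per 10000 in that bin against 149 in the members, and Malat1, a nuclear RNA, had 166 against 148. Fth1 had 160 against 188. These cells had a median of 3034 UMIs, and the part of depth in these differences was not tested.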
